A study of Mus musculus with 16 samples.

Results

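The 10 genes described here encode the enzymes, coats and uptake proteins that move fat in and out of muscle fibres: Pnpla2, Lipe, Mgll, Abhd5, G0s2, Plin2, Plin4, Plin5, Lpl and Cd36. They were chosen by their names, with earlier results of these data known. All 10 were present in both deposited tables, among 21011 genes of skeletal muscle and 38933 genes of cortical bone. Female C57BL/6 mice, 18 months old at the start, received the aryl hydrocarbon receptor (AhR) antagonist BAY2416964 (BAY) by oral gavage for 8 weeks (30 mg/kg, 5 days a week), or its vehicle of ethanol, Solutol and water (VEH). Bulk RNA-seq covered 4 BAY-treated and 4 VEH-treated mice per tissue, with 1 library per mouse and 1 tibialis anterior per mouse for skeletal muscle, and no mouse in these tables was a young or untreated control. Cortical bone came from shafts that had first been emptied of marrow cells and digested with collagenase, so it is not whole bone. Marker mRNA of marrow cells was still read there, as given below. The deposited column of skeletal muscle VEH replicate 3 is named as a replacement, and results for skeletal muscle are therefore given with and without it. P values measure the spread between these mice.

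Fat inside a fibre is stored as triglyceride in lipid droplets. Adipose triglyceride lipase, the product of Pnpla2, takes off the first fatty acid, hormone-sensitive lipase (Lipe) the next, and monoacylglycerol lipase (Mgll) the last. The protein of Abhd5 activates adipose triglyceride lipase and that of G0s2 inhibits it. Perilipins coat the droplet and gate access of the lipases, lipoprotein lipase (Lpl) frees fatty acids from circulating lipoproteins at the capillary wall, and Cd36 carries them across the cell membrane.

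The question was whether blocking AhR for 8 weeks altered the mRNA of these genes in aged muscle, with bone set beside it. Of the 10 genes, Cd36 was lower and Plin4 was higher in skeletal muscle of BAY-treated mice at an unadjusted P value under 0.05, which 9.79% of all genes had, and neither reached a fold change of 2. The highest value of 8 of the 10 genes belonged to VEH replicate 3, a library that also held adipocyte mRNA. Pnpla2 was 6.35% higher in BAY-treated mice with all 8 libraries, with overlap, and 29.2% higher without VEH replicate 3, with no overlap, a separation that 9.15% of all genes then had. Cd36 (−0.74 to −0.47 on the log2 scale) and Plin4 (0.36 to 0.30) kept their direction without that library, but no longer had an unadjusted P value under 0.05. No member had an adjusted P value under 0.05 in either tissue.

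Promoters are shown for the 4 genes that these comparisons turn on, because AhR binds DNA with its partner ARNT at sites around the letters GCGTG, and because PPAR receptors, which respond to fatty acids, bind pairs of AGGTCA half-sites. The RefSeq promoter table for GRCm38.p6, a different build from the mm39 of the expression tables, held entries for 9 of the 10 genes. Both motifs were searched on both strands from 250 bases before to 50 bases after each start, and no matches overlapped within a window of the 9 genes. The windows listed for Plin5 overlapped each other. A GCGTG match counted in both, 20 bases after and 230 bases before the starts, was the same site. GCGTG stood in 32.4% of all 32851 promoters and in 8 of the 12 listed for the 9 genes, those of Abhd5, G0s2, Lipe, Mgll, Plin2 and Plin5. AGGTCA stood in 16.3% of all promoters and in 5 of those 12, those of Abhd5, Cd36, Plin2 and Plin5. The sequences run 5′ to 3′ along the gene strand over the 250 bases before the start, and capitals mark GCGTG or the reverse complement of AGGTCA. They lie at chr7:141454938-141455187 (plus strand) for Pnpla2, chr9:122351366-122351615 (plus) for Abhd5, chr17:56109783-56110032 (minus) for Plin4 and chr5:17835897-17836146 (minus) for Cd36.
Pnpla2: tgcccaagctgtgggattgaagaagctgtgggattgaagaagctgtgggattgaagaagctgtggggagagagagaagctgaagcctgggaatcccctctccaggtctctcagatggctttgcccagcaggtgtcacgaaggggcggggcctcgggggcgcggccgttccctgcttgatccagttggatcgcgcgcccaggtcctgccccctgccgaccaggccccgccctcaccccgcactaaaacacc
Abhd5: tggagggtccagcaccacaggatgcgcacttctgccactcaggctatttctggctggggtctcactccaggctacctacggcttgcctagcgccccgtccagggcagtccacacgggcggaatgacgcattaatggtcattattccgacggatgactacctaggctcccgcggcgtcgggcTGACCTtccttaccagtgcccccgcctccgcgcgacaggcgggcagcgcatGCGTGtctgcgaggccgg
Plin4: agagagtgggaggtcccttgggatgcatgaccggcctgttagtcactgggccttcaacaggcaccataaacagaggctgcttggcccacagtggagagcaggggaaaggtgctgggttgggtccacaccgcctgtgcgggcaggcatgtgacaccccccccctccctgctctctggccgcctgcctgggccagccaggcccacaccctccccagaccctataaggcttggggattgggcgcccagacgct
Cd36: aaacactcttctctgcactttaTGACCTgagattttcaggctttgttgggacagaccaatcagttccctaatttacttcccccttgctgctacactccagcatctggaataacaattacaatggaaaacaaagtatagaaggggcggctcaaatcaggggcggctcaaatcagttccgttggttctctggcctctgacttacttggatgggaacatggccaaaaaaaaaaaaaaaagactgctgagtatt
The Abhd5 promoter held both, with GCGTG beginning 18 bases and the AGGTCA match 69 bases before the start. In Cd36 the AGGTCA match began 228 bases before the start, and neither motif was found in these windows of Pnpla2 and Plin4. These matches are a description of the letters, and binding was not measured.

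Depth on genes ran from 6131913 to 9262371 reads per library in skeletal muscle and from 930307 to 6951904 in cortical bone, by the step size of the deposited values. The members rested on 39 (Plin5) to 4030 (Lpl) reads per muscle library but on 2 to 446 reads per bone library, and the reads of Lipe and Abhd5 came out as fractions in some libraries. All 8 muscle libraries carried fast-fibre mRNA, with 98869 to 170854 CPM (counts scaled to a common library total) summed over 8 fast-fibre genes. All 8 bone libraries carried osteoblast and osteocyte mRNA. Over 7 genes it summed to 949 to 21611 CPM in VEH and 1090 to 15362 CPM in BAY. Adipocyte markers there summed to 29.5 to 283 CPM in VEH and 97.0 to 233 CPM in BAY. These sums tended to rise with the level of olfactory receptor genes, used below as background. VEH replicate 1 was lowest in both (29.5 CPM and 0.138 CPM per kb). VEH replicate 2 (283 and 7.89) and BAY replicate 4 (233 and 9.50) were highest in both. How much of the sums was fat-cell mRNA was not tested.

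Per kilobase of transcript, which allows levels to be set side by side, Pnpla2 and Plin4 were the highest members in skeletal muscle. Pnpla2 had a median of 46.4 CPM per kb (35.5 to 84.9 over the 8 libraries) and Plin4 a median of 42.3 (30.6 to 51.4), so the ranges overlapped. Lpl followed at 21.7 (17.1 to 106) and Cd36 at 14.4 (6.40 to 33.6), again with overlap. Plin2 at 5.22 and Mgll at 4.72 CPM per kb came next, and Abhd5 at 2.94, Lipe at 2.73 and Plin5 at 2.67 were the lowest and could not be ordered among themselves. G0s2 was not placed in this order, since its reference transcript is longer than its span in the deposited tables. Thus the lipase Pnpla2 outweighed its activator Abhd5 in the mRNA of every muscle library, with 0.0445 to 0.0820 CPM per kb of Abhd5 for each of Pnpla2.

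**Figure D1:**
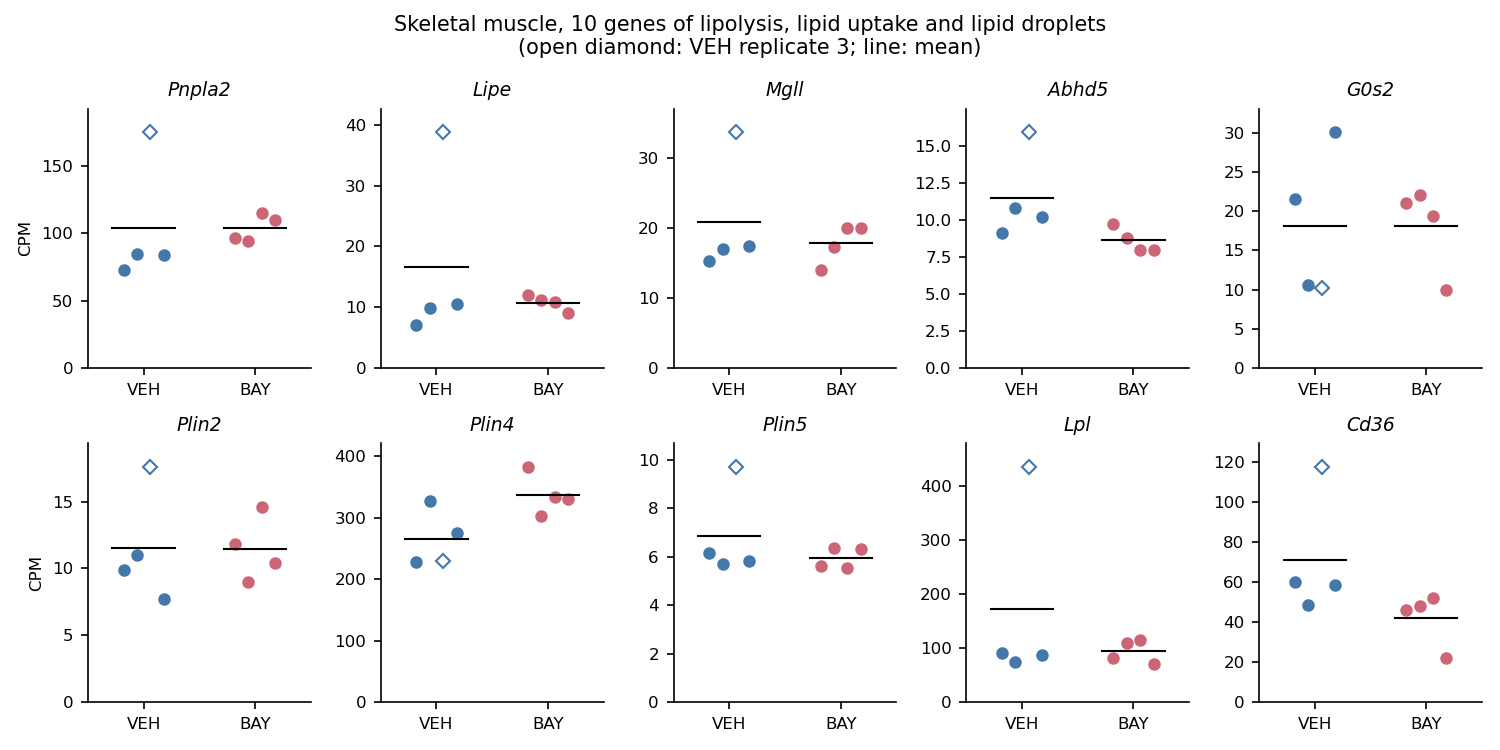
CPM of the 10 genes in each skeletal muscle library, on linear axes from 0, for 4 VEH (blue) and 4 BAY (red) mice; the line is the mean of 4 and the open diamond is VEH replicate 3. The diamond is the highest point in 8 panels and lies at the low end of VEH for G0s2 and near the low end for Plin4.

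VEH replicate 3 was the highest of all 8 muscle libraries for every member but Plin4 and G0s2. Its Lpl level was 435 CPM against 70.5 to 116 CPM in the other 7 libraries, and its Lipe level was 38.8 against 7.08 to 12.04 CPM. Relative to the median of the other 7, it was 4.97 times as high for Lpl, 3.69 for Lipe, 2.43 for Cd36, 1.95 for Mgll, 1.85 for Pnpla2, 1.75 for Abhd5, 1.70 for Plin2 and 1.66 for Plin5. Both remaining members were below that median, with 0.704 for Plin4 and 0.482 for G0s2. Of 8073 genes averaging at least 5 CPM, 18.1% stood above 1.5 times in this library, with a median of 1.15.

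The same library held the mRNA of fat cells. Summed over 10 adipocyte markers it had 311 CPM, against 7.34 to 16.1 CPM in the other muscle libraries, and each of the 10 markers was highest there. Plin1, the perilipin of adipocytes, had 37.9 CPM against 0.275 to 2.33, and the adipokine Adipoq had 16.4 CPM against at most 1.05. Macrophage markers summed to 21.8 against 6.80 to 10.8 CPM and slow-fibre markers to 283 against 23.0 to 216 CPM. Col1a1, a collagen gene of bone and connective tissue, had 86.4 against 12.3 to 25.1 CPM, and made up most of the 87.6 CPM of the 3 osteoblast and osteocyte genes in the muscle table, whereas the fast-fibre and endothelial sums lay within the range of the other libraries. Their part in the values of the members was not tested. More cells of a type and more RNA per cell cannot be told apart in bulk samples.

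**Figure D2:**
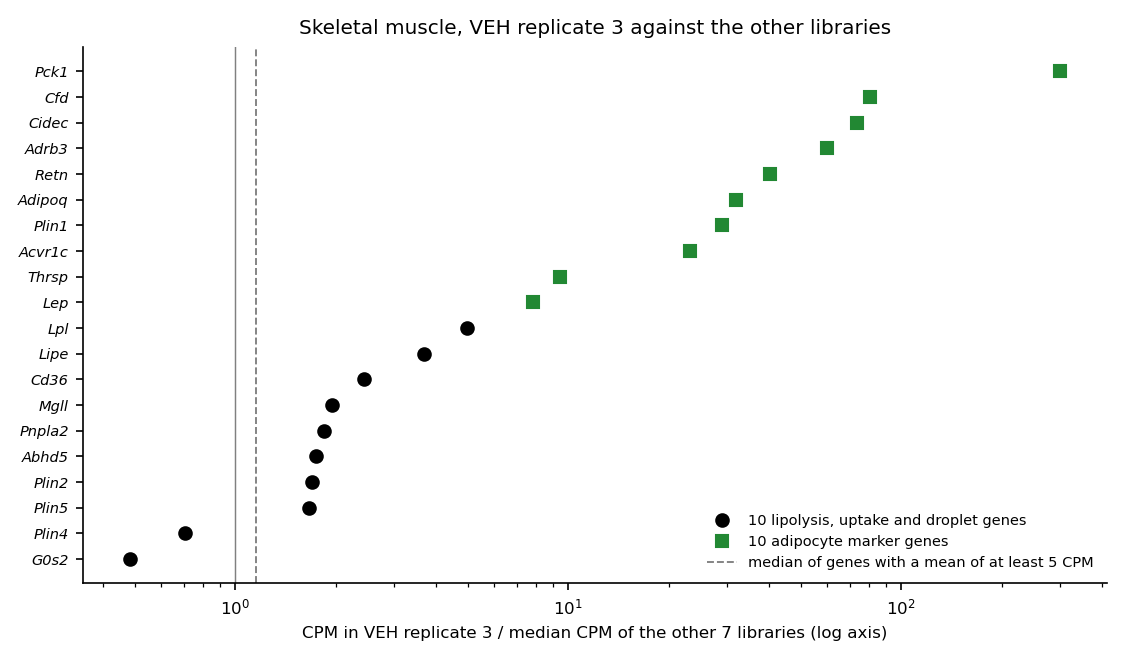
CPM in skeletal muscle VEH replicate 3 divided by the median of the other 7 libraries (log axis), for the 10 members (circles) and 10 adipocyte marker genes (squares); the solid line is 1 and the dashed line the median of 8073 genes, 1.15. 8 members lie right of both lines, from 1.66 for Plin5 to 4.97 for Lpl, and every adipocyte marker lies further right.

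Of the 10 genes, none was called in skeletal muscle at an unadjusted P value under 0.05 with a fold change of at least 2, a rule that 2.43% of all genes passed in limma and that no member passed with limma voom on recovered reads either. At an unadjusted P value under 0.05 alone, 2 members passed with each tool, against 9.79% of all genes in limma. No member had groups without overlap, against 5.73% of all genes. The median log2 fold change of the members was −0.16, with 4 higher and 6 lower, and that of all genes was 0.06.

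Without VEH replicate 3 the members moved toward higher values in BAY. Their median became 0.11, with 7 higher and 3 lower, beside a median of 0.12 for all genes, so the values of Pnpla2, Plin4, Abhd5 and Cd36 without that library are also given relative to it. No member was called (2.36% of all genes), 1 was under 0.05 without adjustment (9.79% of all genes) and 1 had groups without overlap (9.15% of all genes). In each case that gene was Pnpla2.

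Among the lipases, Pnpla2 (ENSMUSG00000025509, mm39 chromosome 7, 141035111 to 141040656, plus strand) had 73.1, 84.6, 175 and 83.7 CPM in VEH replicates 1 to 4 and 96.7, 94.6, 115 and 110 CPM in BAY replicates 1 to 4. Every BAY library was above every VEH library apart from VEH replicate 3, which was the highest of all. The log2 fold change over 8 libraries was 0.09 (SE 0.22, limma P = 0.692, exact permutation P = 0.886). Without VEH replicate 3 it was 0.37 (95% CI 0.12 to 0.62, limma P = 0.00684, adjusted P = 0.342), with a two-sided exact permutation P of 0.0571, the smallest that 3 against 4 can give. Relative to the median of all genes it was 0.25. This was the only one of the 8 libraries whose removal put Pnpla2 under 0.05.

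Lipe (ENSMUSG00000003123, chromosome 7, 25078952 to 25098135, minus strand) had 7.08, 9.81, 38.8 and 10.5 CPM in VEH and 12.04, 11.2, 10.9 and 8.98 CPM in BAY. The groups overlapped, and the 3 VEH libraries other than replicate 3 reached from below to inside the BAY range. Its log2 fold change turned from −0.27 (SE 0.39) to 0.25 (SE 0.18) without that library, with exact permutation P = 0.886 and 0.286. Mgll (ENSMUSG00000033174, chromosome 6, 88701394 to 88805342, plus strand) had 15.2, 17.0, 33.7 and 17.4 CPM in VEH and 14.0, 17.3, 19.996 and 20.1 CPM in BAY. It turned in the same way, from −0.16 to 0.10 (exact permutation P = 0.743 and 0.571), so neither of the later lipases differed beyond the spread between mice.

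The activator Abhd5 (ENSMUSG00000032540, chromosome 9, 122180673 to 122210589, plus strand) had 9.10, 10.8, 15.9 and 10.2 CPM in VEH and 9.74, 8.78, 7.98 and 7.98 CPM in BAY. Only BAY replicate 1 reached into the VEH range, above VEH replicate 1. The log2 fold change was −0.39 (95% CI −0.79 to 0.02, limma P = 0.0607, exact permutation P = 0.0571) and −0.22 (exact permutation P = 0.114, or −0.34 relative to all genes) without VEH replicate 3. Its limma P value was under 0.05 when VEH replicate 1 was left out (−0.49) and when each library was centred on its median (−0.44). The inhibitor G0s2 (ENSMUSG00000009633, chromosome 1, 192954469 to 192955525, minus strand) varied in both groups, with 21.5, 10.6, 10.1 and 30.1 CPM in VEH and 21.1, 22.0, 19.4 and 9.96 CPM in BAY. Its log2 fold change was 0.09 (SE 0.34) and −0.14 without VEH replicate 3, and the 95% CI over 8 libraries, −0.63 to 0.81, included differences in both directions.

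Pnpla2 and Abhd5 had opposite signs without VEH replicate 3, and their ratio within a library removes the scaling between libraries. Abhd5 per kb over Pnpla2 per kb was 0.0800, 0.0820, 0.0584 and 0.0782 in VEH and 0.0646, 0.0596, 0.0445 and 0.0465 in BAY. VEH replicate 3 lay inside the BAY range, and the other 3 VEH libraries lay above all 4 BAY libraries. The exact two-sided permutation P was 0.0857 with 8 libraries and 0.0571 without VEH replicate 3. It was 1 of 5 ratios computed in skeletal muscle, of which only Cd36 to Lpl reached the same P without that library, at 0.755 to 0.784 in VEH and 0.373 to 0.652 in BAY. Both were chosen after values were known and do not pass a correction for 5 ratios.

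Of the droplet coats, Plin4 (ENSMUSG00000002831, chromosome 17, 56407591 to 56416803, minus strand), the most abundant of these perilipins per kb, had 228, 327, 230 and 275 CPM in VEH and 383, 304, 334 and 331 CPM in BAY. VEH replicate 2 overlapped with BAY, and the other 3 VEH libraries were below all 4 BAY libraries. The log2 fold change was 0.36 (95% CI 0.04 to 0.68, limma P = 0.0286, adjusted P = 0.459), the exact permutation P was 0.0571 and limma voom gave P = 0.0111. It was 0.30 (exact permutation P = 0.114, or 0.18 relative to all genes) without VEH replicate 3. Its limma P value passed 0.05 no longer there, nor without VEH replicate 1, BAY replicate 1 or BAY replicate 3 (0.29 to 0.36), nor with median centring (0.31).

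Plin5 (ENSMUSG00000011305, chromosome 17, 56418601 to 56424596, minus strand), the coat of droplets in contact with mitochondria, is the neighbour of Plin4 on the same strand but did not follow it. It had 6.17, 5.72, 9.72 and 5.84 CPM in VEH and 5.64, 6.36, 5.55 and 6.31 CPM in BAY. Apart from VEH replicate 3 all values lay between 5.55 and 6.36 CPM, and the log2 fold change without it was 0.01 (95% CI −0.37 to 0.39). Plin2 (ENSMUSG00000028494, chromosome 4, 86566623 to 86588297, minus strand), the widely expressed coat, had 9.89, 11.0, 17.6 and 7.75 CPM in VEH and 11.8, 8.97, 14.6 and 10.4 CPM in BAY. The groups overlapped throughout, with a log2 fold change of 0.03 (SE 0.24) and 0.25 (SE 0.19) without VEH replicate 3. The ratio of Plin5 to Plin4 per kb was 0.140 in VEH replicate 3 and 0.0488 to 0.0896 elsewhere.

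Of the uptake genes, Cd36 (ENSMUSG00000002944, chromosome 5, 17986688 to 18093799, minus strand), the fatty acid translocase, had 60.1, 48.5, 118 and 58.4 CPM in VEH and 46.0, 48.3, 52.1 and 22.4 CPM in BAY. Only BAY replicate 3 was above the lowest VEH library, and BAY replicate 4 was far below all others. The log2 fold change was −0.74 (95% CI −1.35 to −0.13, limma P = 0.0215, adjusted P = 0.426), with an exact permutation P of 0.0571 and a limma voom P of 0.00431. It was −0.47 (exact permutation P = 0.114) without VEH replicate 3 and −0.46 without BAY replicate 4, and its limma P value was above 0.05 in both cases. Relative to the median of all genes it was −0.59 without VEH replicate 3.

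Lpl (ENSMUSG00000015568, chromosome 8, 69333143 to 69360100, plus strand) had 91.4, 75.4, 435 and 87.6 CPM in VEH and 82.7, 109, 116 and 70.5 CPM in BAY. Apart from VEH replicate 3 the VEH values lay inside the BAY range. Its log2 fold change turned from −0.46 (SE 0.42, exact permutation P = 0.743) to 0.13 (SE 0.17, exact permutation P = 0.571) without that library.

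**Figure D3:**
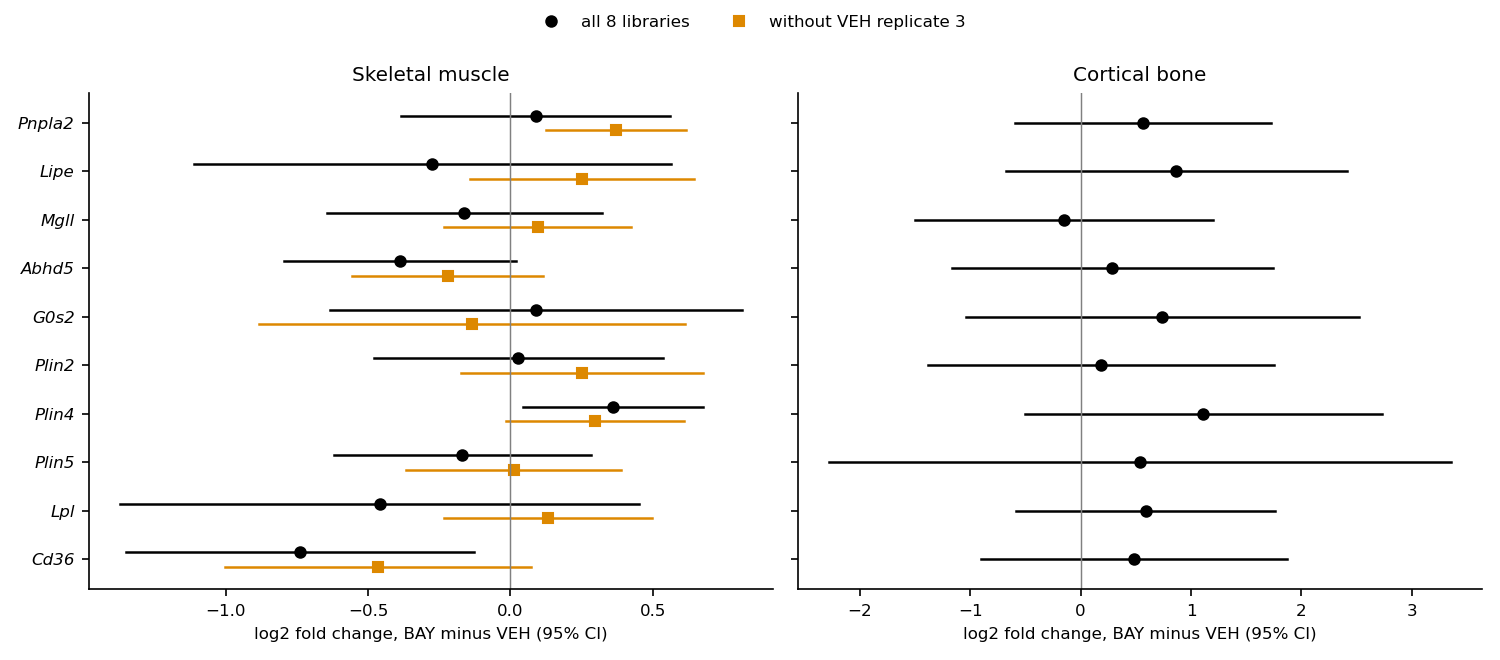
Log2 fold change, BAY minus VEH, of the 10 genes with its 95% confidence interval from limma, in skeletal muscle with all 8 libraries (circles) and without VEH replicate 3 (squares), and in cortical bone with all 8 libraries; the horizontal scales differ. In muscle the intervals of Plin4 and Cd36 exclude 0 with 8 libraries and that of Pnpla2 without VEH replicate 3, and every bone interval includes 0.

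Beside the 10 members, 44 genes of lipoprotein handling, fatty acid activation, triglyceride synthesis, droplet formation, control of lipolysis and their transcription factors were examined. This list was chosen with earlier results of these data known, so its shares do not test whether lipid genes changed more than others. In skeletal muscle 5 of its genes were higher and 3 were lower in BAY at an unadjusted P value under 0.05. That was 18.2% of the list beside 9.79% of all genes, and the list's median log2 fold change was −0.05 against 0.06. The 4 genes without overlap (9.09%, beside 5.73% of all genes) were Gpihbp1, Lmf1, Foxo1 and Hilpda. Without VEH replicate 3, 7 were higher and 1 was lower (18.2% beside 9.79% of all genes), Lpin2 and Hilpda were called (2 of 44 beside 2.36% of all genes), and 7 had no overlap (15.9% beside 9.15% of all genes). None had an adjusted P value under 0.05. Genes are named below where their unadjusted P value passed in either setting, together with Angptl4, Vldlr, Ppara, Ppard and Pparg, which were chosen after their values were seen.

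Of the 4 genes of lipoprotein handling in the list, Gpihbp1 and Lmf1 were higher in BAY at an unadjusted P value under 0.05, and Angptl4 and Vldlr (0.11, with overlap) were not. Lpl itself overlapped between the groups. Gpihbp1, which carries lipoprotein lipase to the capillary lumen and is made by endothelial cells, had 5.82, 6.41, 6.37 and 5.84 CPM in VEH and 9.36, 9.46, 8.64 and 9.40 CPM in BAY. Lmf1, which folds the lipase before secretion, had 8.85, 8.50, 8.10 and 7.87 CPM in VEH and 11.6, 9.95, 10.2 and 10.9 CPM in BAY. In both genes all 4 BAY libraries were above all 4 VEH libraries, VEH replicate 3 included. The log2 fold changes were 0.59 (SE 0.16, limma adjusted P = 0.295) for Gpihbp1 and 0.35 (SE 0.15, limma adjusted P = 0.475) for Lmf1, on 46 to 68 and 61 to 84 reads per library. Each gave an exact permutation P of 0.0286, the smallest that 4 against 4 allows. The fold changes were 0.61 and 0.34 without VEH replicate 3.

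Of 7 endothelial markers, Cdh5, Egfl7 and Tie1 were higher in BAY at an unadjusted P value under 0.05 (42.9% beside 9.79% of all genes), Pecam1 (−0.02) and Kdr (−0.24) had lower means, and the sum was 196 to 226 CPM in VEH and 225 to 272 CPM in BAY. The marker list too was chosen with earlier results known, and the part of endothelial mRNA in Gpihbp1 was not tested. The lipase inhibitor Angptl4 had at most 0.596 CPM in all libraries but VEH replicate 3, which had 4.32 CPM.

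Of the transcription factors, Foxo1, a factor known to act on Pnpla2 in fat cells, had 21.5, 27.3, 25.6 and 19.4 CPM in VEH and 30.5, 27.5, 33.1 and 35.3 CPM in BAY, a log2 fold change of 0.44 (SE 0.14, exact permutation P = 0.0286, limma adjusted P = 0.355) with no overlap. Srebf1, a driver of fatty acid synthesis, had a log2 fold change of 0.40 (limma adjusted P = 0.501) and 0.54 without VEH replicate 3, with overlap. The fatty acid receptors Ppara (−0.45), Ppard (0.19) and Pparg (0.19) did not pass. In triglyceride synthesis, Dgat1, which adds the last fatty acid, had a log2 fold change of 0.63 (limma adjusted P = 0.493), and Lpin2 had 0.76 (limma adjusted P = 0.545) and 1.00 without VEH replicate 3. Lpin2 had 7 to 23 reads per library and overlapped over the 8 libraries, so the size of its difference is uncertain. The droplet protein Hilpda, which inhibits adipose triglyceride lipase, had 1 to 9 reads per library, too few to size a difference, although its groups did not overlap. Of the acyl-CoA synthetases, which activate fatty acids, Acsl4 had a log2 fold change of −0.61 (limma adjusted P = 0.328) and Acsl3 of −0.89 (limma adjusted P = 0.476). Both had −0.46 without VEH replicate 3, and only Acsl4 still had an unadjusted P value under 0.05. Plin1, with −2.13 (limma adjusted P = 0.480), was the list's 1 called gene, and it was not called without that library.

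**Figure D4:**
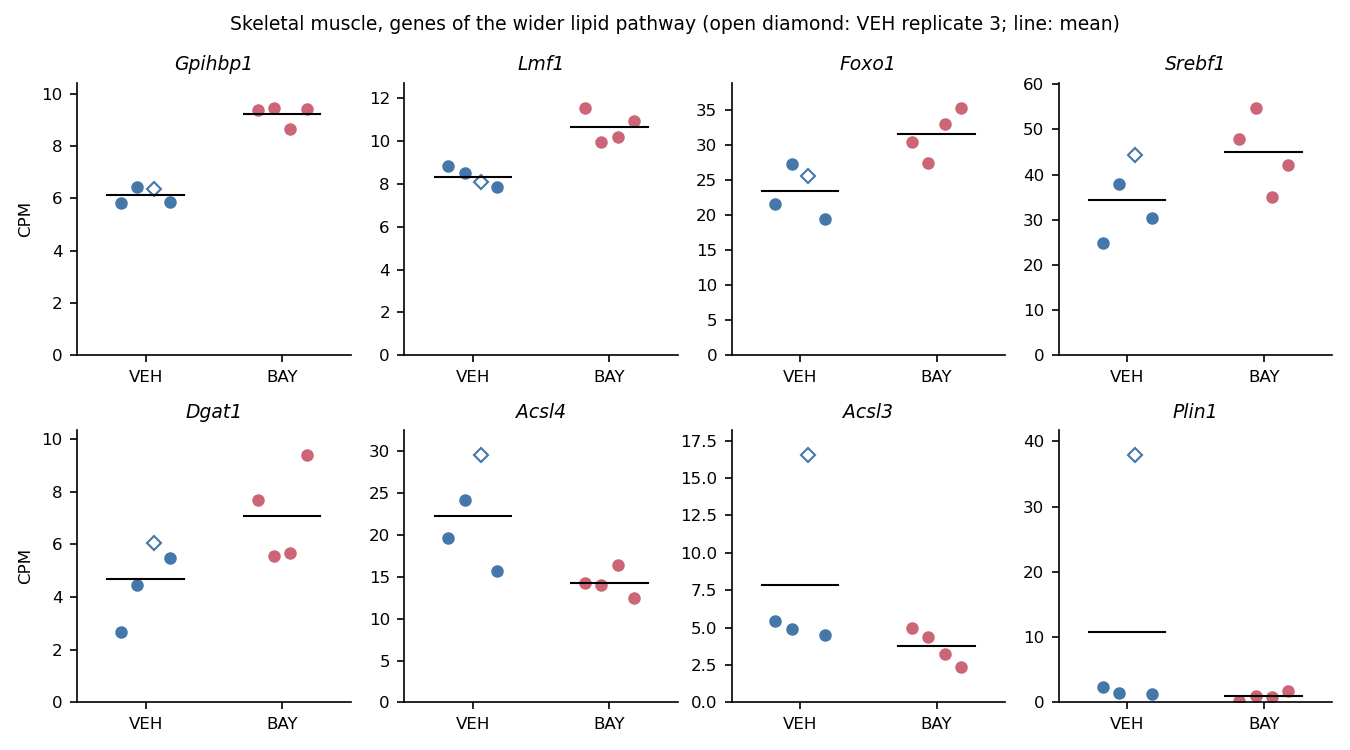
CPM in each skeletal muscle library, on linear axes from 0, of the 8 genes of the wider lipid list with an unadjusted P value under 0.05; the line is the mean of 4 and the open diamond is VEH replicate 3. Gpihbp1, Lmf1 and Foxo1 separate BAY (red) from VEH (blue) completely, whereas the diamond alone stands high for Acsl3 and Plin1.

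The members did not move as one set. Over the 8 muscle libraries Lpl correlated with Lipe (r = 0.93) and with Plin5 (r = 0.91), and Mgll with Pnpla2 (r = 0.90), on deposited log2 values. Without VEH replicate 3 these correlations were 0.26, −0.12 and 0.63, and the highest among members became that of Plin4 with Lipe (r = 0.76), then those of Plin4 with Pnpla2 (r = 0.73) and of Cd36 with G0s2 (r = 0.72). Abhd5 and Pnpla2 went from 0.55 to −0.68. All of these are descriptions over 8 or 7 libraries that share their scaling to library totals.

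Of the 8073 genes averaging at least 5 CPM, those most like each member over 8 libraries were Dolk and Qk for Pnpla2 (r = 0.99 for both), Ifngr1 and Aoc3 for Lipe (0.98 for both), and Pcp4l1 and Eci2 for Mgll (0.99 and 0.97). Abhd5 was closest to Ipo8 and Pbrm1 (0.99 and 0.98), G0s2 to Cdc42ep2 and Cyfip2 (0.90 for both), Plin2 to Pdgfra and Crat (both 0.97), Plin4 to Hectd4 and Ssr1 (both 0.99), and Plin5 to Xbp1 and Rps26 (both 0.98). Lpl was closest to Hsdl2 and Tmem123 (0.99 and 0.98), and Cd36 to Cav2 and Pnpla8 (both 0.99). Without VEH replicate 3, Pcp4l1 was still among the 2 closest to Mgll (0.98), Ipo8 to Abhd5 (0.96), Hectd4 to Plin4 (1.00) and Cav2 to Cd36 (0.99). The others were then Tlcd3b and Col4a2 for Pnpla2, Osmr and Rpia for Lipe, Cir1 for Mgll, Hnrnpc for Abhd5, Ciao2a and Cacybp for G0s2, Rsph3a and Bcl9 for Plin2, Ank3 for Plin4, Gm6563 and Nde1 for Plin5, Fhl1 and Prkg1 for Lpl, and Orc4 for Cd36 (0.95 to 1.00).

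In cortical bone none of the 10 genes was called in limma or in limma voom, against 0.64% of all genes in limma, and none had an unadjusted P value under 0.05 with either tool. The median log2 fold change of the members was 0.55, with 9 higher and Mgll lower, against a median of all genes of 0.84, so that most members stood below the shift of the table. Marrow mRNA was uneven between libraries, with neutrophil markers summing to 66.3 to 1483 CPM in VEH and 46.5 to 791 CPM in BAY. Erythroid markers summed to 76.2 to 424 CPM in VEH and 52.5 to 188 CPM in BAY. Their part in the members was not tested. Levels near background limited the comparison of BAY with VEH in bone. Olfactory receptor genes, which bone is not known to use, were read at 0.138 CPM per kb in VEH replicate 1 and at up to 9.50 CPM per kb in BAY replicate 4. Leaving out G0s2 for its uncertain length, the other 9 members stood at 3.23 to 113 times that level in VEH replicate 1, but 4 of the 9 fell below it in VEH replicate 2, 4 in VEH replicate 4, 5 in BAY replicate 4, 2 in BAY replicate 3 and 1 in VEH replicate 3. In skeletal muscle each of the 9 was at least 10.1 times the olfactory receptor level of that tissue in every library. That level rested on 43 olfactory receptor genes in muscle and on 1355 in bone, so the multiples of the tissues rest on unlike gene sets.

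Plin4 was highest in the 2 bone libraries with most fast-fibre mRNA. It had 25.5, 23.0, 10.3 and 12.4 CPM in VEH and 80.5, 80.6, 12.2 and 20.4 CPM in BAY. BAY replicates 1 and 2, the high libraries, also had 25251 and 27716 CPM summed over 8 fast-fibre genes, against 20.4 to 4852 CPM in the others. Of the other 6 libraries, VEH replicate 1 was the highest in both, with 4852 CPM of fast-fibre genes and 25.5 CPM of Plin4, whereas BAY replicate 3 had 973 CPM of fast-fibre genes and 12.2 CPM of Plin4, and BAY replicate 4 had 48.5 and 20.4 CPM. The log2 fold change of Plin4 was 1.11 (SE 0.75, exact permutation P = 0.286). It was −0.06 (SE 1.00) without BAY replicates 1 and 2, a setting chosen after the data were seen, and a lower value follows from leaving out the 2 highest Plin4 libraries. The part of fibre mRNA in the members was not tested.

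Pnpla2 had 26.6, 34.1, 23.4 and 26.2 CPM in VEH and 53.2, 50.9, 39.7 and 24.7 CPM in bone of BAY-treated mice. The same BAY libraries were highest, and the log2 fold change was 0.56 (SE 0.54, exact permutation P = 0.114), or 0.20 without both of them. Plin5 had 1.01, 11.97, 3.90 and 2.91 CPM in VEH and 11.6, 11.99, 1.02 and 4.30 CPM in BAY, with 2 to 29 reads, and differed by less than the spread between mice. Cd36, lower in muscle of BAY-treated mice, had 28.6, 14.7, 11.3 and 20.4 CPM in VEH and 44.3, 29.8, 21.9 and 12.9 CPM in bone of BAY-treated mice (log2 fold change 0.48, SE 0.64, or −0.07 without BAY replicates 1 and 2). The 2 tissues were normalized in separate tables, and no difference between them was tested.

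G0s2 was the 1 member whose groups did not overlap in bone, against 0.406% of all genes. It had 4.03, 5.52, 5.67 and 8.01 CPM in VEH and 8.49, 8.27, 8.66 and 12.9 CPM in BAY, on 6 to 28 reads. All 4 BAY libraries were above all 4 VEH libraries, VEH replicate 4 and BAY replicate 2 by a narrow margin. By its reference transcript, of uncertain length, G0s2 stood below the olfactory receptor level in VEH replicates 2 and 4 and in BAY replicate 4. It was at 0.413 times that level in VEH replicate 2 and at 1.54 to 17.1 times in the libraries above it. BAY replicate 4, its highest library, also had the highest olfactory receptor level, 9.50 CPM per kb. The part of background in this separation was not tested. The exact permutation P was 0.0286 and the limma P was 0.385, with a log2 fold change of 0.74 (SE 0.82) that lay below the shift of all genes and was −0.11 after median centring.

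Lpl was the most abundant member per kb in bone, at a median of 24.5 CPM per kb, with 37.6 to 122 CPM in VEH and 91.4 to 143 CPM in BAY (log2 fold change 0.59, SE 0.54). Lipe (0.87, SE 0.71), Abhd5 (0.29, SE 0.67), Plin2 (0.18, SE 0.72) and Mgll (−0.15, SE 0.62) overlapped between the groups as well. The wider list of 44 genes had no gene at an unadjusted P value under 0.05 in bone, where 0.64% of all genes had one, and its median log2 fold change was 0.41 against 0.84 for all genes. Gpihbp1 had 2.88 to 21.2 CPM in VEH and 5.60 to 12.8 CPM in BAY there.

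**Figure D5:**
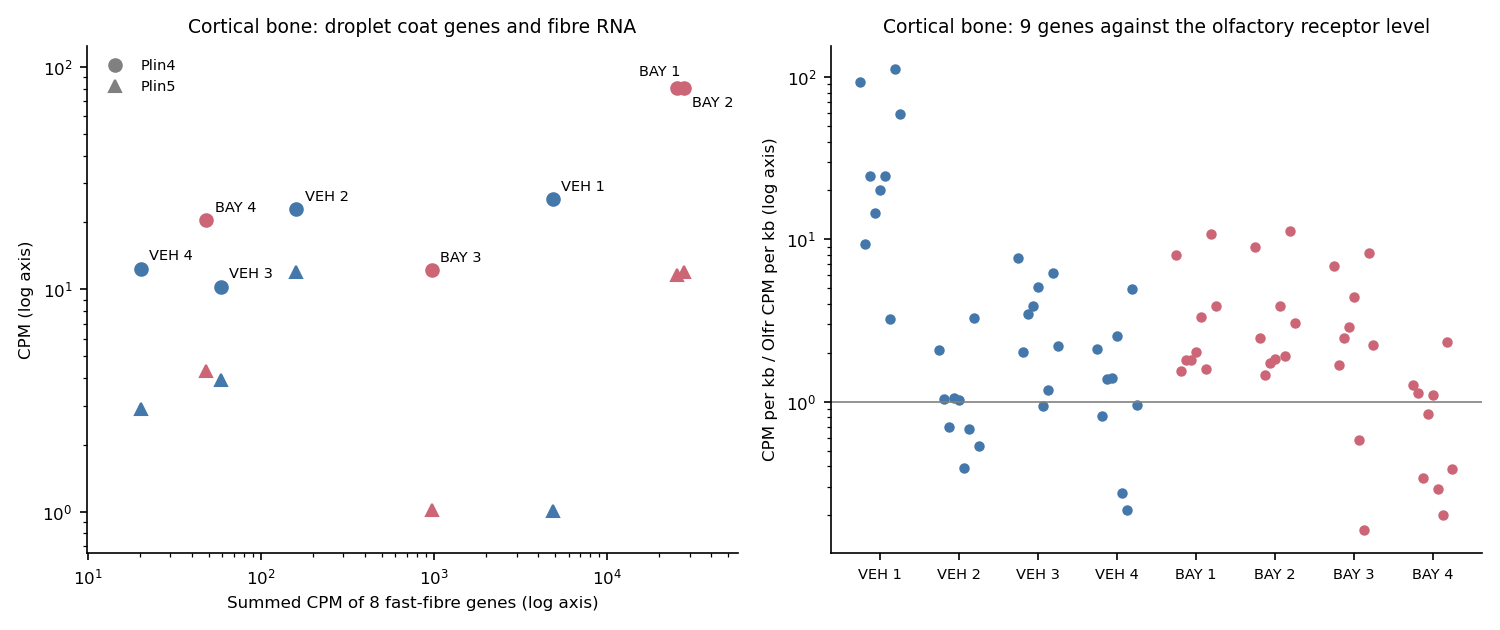
Left, CPM of Plin4 (circles) and Plin5 (triangles) in each cortical bone library against the summed CPM of 8 fast-fibre genes, both on log axes, for VEH (blue) and BAY (red). Right, CPM per kb of 9 members, in the order Pnpla2, Lipe, Mgll, Abhd5, Plin2, Plin4, Plin5, Lpl and Cd36 from left to right within each library, divided by that of olfactory receptor (Olfr) genes (log axis, line at 1). Plin4 is near 80 CPM only in BAY replicates 1 and 2, and 4 members lie under the line in VEH replicates 2 and 4 and 5 in BAY replicate 4.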

How the data were processed

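The authors trimmed the reads of stranded poly(A) libraries, aligned them with STAR (version 2.7.8a) to mm39, counted Ensembl release 104 genes by the E/M algorithm of Partek and deposited, per tissue, log2 of CPM plus an offset (0.0004 in skeletal muscle, 0.0001 in cortical bone, from the lowest values). Deposited log2 values were undone to CPM, and reads were recovered from the step between low values, with 81.3% to 88.4% of values up to 50 reads whole to within 0.02. The sums of all libraries lay within 0.0018% of each other, which fixes every level relative to the other genes of that library.

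BAY was compared with VEH in limma (version 3.58.1, R version 4.3.3; lmFit, eBayes with trend, two-sided, no filter or covariate), over all genes of a table, with Benjamini-Hochberg adjustment; a call needed P under 0.05 without adjustment and at least 2-fold change. Fold changes refer to log2(CPM + offset). The authors' methods name limma-voom, tried here on recovered reads. Exact permutation tests used scipy (version 1.17.1). Levels per kb used the canonical transcripts of GENCODE M39.

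The members and lists were chosen with earlier results of these data known. Named are the members, genes of the wider list with an unadjusted P value under 0.05 with or without VEH replicate 3 (beside Angptl4, Vldlr, Ppara, Ppard and Pparg, chosen after values were seen), marker genes that moved with members and the 2 genes most like each member. Replicate numbers belong to different mice, and correlations of same-numbered deviations (−0.09 to 0.01 in skeletal muscle, −0.11 to 0.19 in cortical bone) gave no pairing. Alternatives were 2 pseudocounts, a filter, median centring, voom, the replicate block and each mouse left out.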

Additional observations from a re-analysis of the deposited data

Results flagged for a closer look

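Within each group of 4 mice, the highest and lowest value of every member were compared with the others by Dixon's criterion, on the deposited log2 scale, in 40 groups, of which chance flags about 1 in 20, and 7 stood apart. On CPM, a scale tried after seeing the data, 7 stood apart as well, of which 5 were the same, with VEH replicate 3 for Lipe (38.8 CPM) and Cd36 (118 CPM) in place of BAY replicate 4 in skeletal muscle. In skeletal muscle VEH replicate 3 stood above the other VEH libraries for Pnpla2 (175 CPM), Mgll (33.7 CPM), Plin5 (9.72 CPM) and Lpl (435 CPM), in the library with 311 CPM of adipocyte markers. The part of those cells in the 4 values was not tested. In the same tissue BAY replicate 4 stood below the other BAY libraries for Cd36 (22.4 CPM) and for G0s2 (9.96 CPM). Its adipocyte sum, 10.2 CPM, was the highest of the BAY libraries, its endothelial sum, 225 CPM, was the lowest of them, and its fast-fibre sum, 170854 CPM, stood above the 98869 to 130381 CPM of the other 7 muscle libraries. Their part in both values was not tested. In cortical bone BAY replicate 4, the library with fewest reads, stood above the others for G0s2 (12.9 CPM, from 12 reads). That library also had the highest olfactory receptor level of the bone libraries.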

How the results depend on the processing

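No member was called in any alternative, in either tissue. In skeletal muscle, the count of called genes was 510, 52 with log2(CPM + 1), 193 with a mean of at least 1 CPM and 448 to 567 with 1 mouse left out. In cortical bone it was 249, 82 with that filter, 443 with median centring, 1433 with voom on recovered reads, 106 without BAY replicates 1 and 2 together, a setting chosen after seeing the data, and 115 to 1116 with 1 mouse left out (1116 without VEH replicate 2, 115 and 130 without VEH replicates 3 and 4, and 157 and 155 without BAY replicates 1 and 2). The replicate block gave 489 and 305 called genes and took Plin4 in skeletal muscle out of the genes under 0.05 in limma, and Cd36 was still among them; the block rests on numbers that do not pair mice.

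In skeletal muscle 59 of 60 log2 fold changes of members kept their direction with another pseudocount, filter, centring, voom or block, and Plin2 reversed (−0.025 with median centring). With 1 mouse left out, 12 of 80 reversed: Pnpla2 ranged from −0.05 to 0.37, Lipe from −0.57 to 0.25, Mgll from −0.29 to 0.10, G0s2 from −0.14 to 0.39, Plin2 from −0.14 to 0.25, Plin5 from −0.24 to 0.011 and Lpl from −0.71 to 0.13.

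In cortical bone, median centring reversed Pnpla2 (−0.29), Abhd5 (−0.56), G0s2 (−0.11), Plin2 (−0.67), Plin5 (−0.31), Lpl (−0.26) and Cd36 (−0.37), and voom reversed Mgll (0.081). With 1 mouse left out, Abhd5 ranged from −0.18 to 0.51, Mgll from −0.36 to 0.066, Plin2 from −0.26 to 0.55 and Plin5 from −0.049 to 1.30. The others kept their direction, with Lpl at 0.26 without VEH replicate 3, Lipe at 0.38 without VEH replicate 1, Cd36 at 0.27 without VEH replicate 3, 0.20 without BAY replicate 1 and 0.80 without BAY replicate 4, and Plin4 at 0.72 without BAY replicate 1 or 2. Without BAY replicates 1 and 2 together, Cd36 was −0.072, Plin4 −0.065, Plin5 −0.71, Pnpla2 0.20, Lpl 0.32, Abhd5 0.59 and Plin2 0.68. Median centring takes off the shift of all genes, and the cause of the other reversals was not tested. Depth limited bone, where 3 reads equal 0.432 to 3.22 CPM, against 0.324 to 0.489 CPM in muscle; this covers counting error only.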
